A study of Mus musculus with 5 samples.

Results

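The nuclear genes for the subunits of respiratory complexes III, IV and V, with cytochrome c, were examined in hematopoietic stem cells (HSCs) that lack Atxn1L. The members are all genes whose symbol begins with Uqcr, Cox4, Cox5, Cox6, Cox7, Cox8 or Atp5, together with Cyc1 and Cycs, and that have at least 1 probe set annotated to that gene alone. These conditions gave 44 genes with 87 probe sets, of 18193 genes with 34945 such probe sets on the array. A gene was read by the probe set with the highest mean over the 5 arrays. A gene was called at an unadjusted limma p of at most 0.05 with a fold of at least 1.5. In Atxn1L null HSCs 2 of the 44 genes passed this criterion as higher than in WT HSCs, where 1.57% of all genes did, and 0 as lower, where 1.43% did. None passed after correction for multiple testing. Both genes that passed, Atp5pb and Atp5k, encode subunits of the membrane part and side stalk of ATP synthase. The call of each was lost when some single arrays were left out.

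RNA of 2 pools of Atxn1L null HSCs and 3 pools of WT HSCs was hybridized to Affymetrix mouse arrays, 1 array per pool. The mice were 6 to 8 weeks old by the sample labels and on the C57Bl/6 background, and the null mice carried an Atxn1L knock-out allele from earlier work in all their cells, so that the loss was not limited to blood. The cells came straight from the bone marrow without culture and were sorted as lineage-negative, Sca-1+ and c-Kit+ cells that carried CD150 and lay in the side population, which exports Hoechst dye. Each pool mixed HSCs of an unstated number of mice, and the mice of both genotypes were otherwise described alike.

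The mitochondrial respiratory chain passes electrons from nutrients to oxygen and stores the energy as a proton gradient across the inner membrane. Complex III hands electrons from ubiquinone to the small soluble carrier cytochrome c, complex IV (cytochrome c oxidase) passes them on to oxygen, and complex V (ATP synthase) lets protons flow back through its membrane ring to drive ATP synthesis in its F1 head. Quiescent HSCs are known to rely largely on glycolysis and to raise mitochondrial respiration when they become active or differentiate. The core catalytic subunits of complexes III and IV that mitochondrial DNA encodes are not among the members, which are all nuclear genes.

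Many nuclear genes of the respiratory chain share short sites for the transcription factors NRF1, GABP and YY1 close to their start. RefSeq promoter windows of 300 bases on build GRCm38.p6, from 250 bases before to 50 after the start, were matched for 33 of the 44 members. Windows of 3 members are shown up to 30 bases after the start, because they belong to the 2 members that passed as higher and to 1 member that had lower values in every Atxn1L null array. Capitals mark matches to the NRF1 spelling GCATGCGC or the GABP spelling CCGGAAG, on either strand.
Atp5k, chr5:108434370-108434649, minus strand: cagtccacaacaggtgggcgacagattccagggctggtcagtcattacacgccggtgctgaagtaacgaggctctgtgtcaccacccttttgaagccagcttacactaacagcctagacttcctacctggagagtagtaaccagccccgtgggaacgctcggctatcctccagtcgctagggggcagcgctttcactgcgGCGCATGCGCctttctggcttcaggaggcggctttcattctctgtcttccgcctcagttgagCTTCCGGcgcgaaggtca
Atp5pb, chr3:105959234-105959513, minus strand: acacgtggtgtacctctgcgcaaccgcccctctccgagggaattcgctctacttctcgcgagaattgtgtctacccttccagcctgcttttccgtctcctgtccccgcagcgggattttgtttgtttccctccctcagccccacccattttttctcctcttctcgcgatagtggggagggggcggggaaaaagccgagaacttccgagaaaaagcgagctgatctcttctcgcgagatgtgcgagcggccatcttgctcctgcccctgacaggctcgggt
Cox6a1, chr5:115348929-115349208, minus strand: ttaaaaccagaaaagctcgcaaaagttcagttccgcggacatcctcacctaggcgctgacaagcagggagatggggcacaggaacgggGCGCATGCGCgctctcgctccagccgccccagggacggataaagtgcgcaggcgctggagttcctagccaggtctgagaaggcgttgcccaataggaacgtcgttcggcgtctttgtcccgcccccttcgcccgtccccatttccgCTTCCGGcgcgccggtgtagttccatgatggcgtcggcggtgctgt
In Atp5k, 2 overlapping NRF1 matches spanned positions -50 to -41 from the start, and a GABP match lay at 13 to 19. Cox6a1 held the same letters at -162 to -153 and at -16 to -10. Atp5pb held neither, nor the YY1 spelling AANATGGCG. Cox6a1 was picked as an example among the members lower in both null arrays. Of the others, Atp5b held only the YY1 spelling of these 3, and Cox6b2 held none. Only exact spellings were searched, and a part of these sites in the differences was not tested.

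Over all matched members, the NRF1 spelling was found in 7 of 33 genes (21.2%), against 6.6% of 5940 genes in the same table whose mean reached 5 and 3.0% of all 27025 genes in the table. These were Atp5g2, Atp5k, Atp5l, Cox6a1, Cycs, Uqcr11 and Uqcrc1. The GABP spelling was found in 11 members (33.3%), against 22.4% and 9.9%. YY1 matches were in 3 members (9.1%), against 7.3% and 2.8%, and the ESRRA spelling TCAAGGTCA was in 1 member, Atp5g3, against 0.4% of the measured genes. The SP1 spelling GGGCGG was in 13 members (39.4%), against 71.7% and 38.2%. The TATA box spelling TATAAA was in 4 members (12.1%), against 8.5% and 15.7%. Both strands were searched, the spellings were settled after several had been tried, and the shares are descriptions of letters in these windows.

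The targeted gene and the identity of the cells were examined first. The Atxn1l probe set with the highest mean read 3.08 and 3.99 in the Atxn1L null arrays, against 6.80, 6.69 and 4.98 in the WT arrays, all on the log2 scale of the deposited values. It was lower by the criterion, and another probe set of the gene read 3.23 and 3.65 in null arrays and 6.31, 6.52 and 5.74 in WT arrays (adjusted p = 0.344). With single arrays left out the first difference stayed between -3.21 and -2.17, but it was called only without the third WT array. Of 12 long-term HSC markers 10 were measured, 9 of them with a mean of at least 5 in a genotype, and none passed the criterion. Their summed level was 14.55 to 14.64 in null arrays and 14.76 to 14.89 in WT arrays, without overlap, 8 of the 10 had a negative difference, and Hoxa9 (-0.29 ± 0.06, adjusted p = 0.570) and Meis1 (-0.46 ± 0.13, adjusted p = 0.767) were lower in both null arrays than in any WT array. Fgd5 (0.30 ± 0.27) and Tek (0.23 ± 0.11) had positive differences. The genotypes did not overlap for 2 of the 10 markers (20%). Over all genes that share was 17.5%, and over genes with a mean of at least 5 it was 33.8%. The sum was taken over unlogged values, so the highest markers lead it. The summed level of these markers thus moved with genotype, and its part in the results was not tested. The 6 erythroid markers measured lay below 5 in every array. Granulocyte and monocyte markers were present, with summed levels of 14.65 to 15.21 in null arrays and 14.38 to 15.26 in WT arrays. Of the multipotent progenitor markers 1 of 5 measured, Cd27, passed as higher, where 1.57% of all genes did. Cd27 lay in the dim range below 5, at 4.06 and 3.97 in null arrays against 3.47, 3.22 and 3.55 in WT arrays. The summed level of the progenitor markers was 8.69 to 8.84 in null arrays and 8.36 to 8.70 in WT arrays. The median of all probe sets lay between 3.03 and 3.07 in the 5 arrays. The Gapdh control probe sets at the 3′ end exceeded those at the 5′ end by 7.33 and 7.21 in null arrays, against 5.89, 6.02 and 5.92 in WT arrays, and the actin controls by 7.43 and 7.28 against 6.71, 6.60 and 6.40. For these control genes, the null pools gave relatively less signal far from the 3′ end than the WT pools, which moves with genotype in every comparison below, and its part in them was not tested.

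All differences below are log2 values of null minus WT with their standard errors, for 2 null and 3 WT arrays. Of the 44 members, 25 had a positive and 19 a negative difference, and the median was 0.049, against -0.0019 over all 18193 genes. Of the members, 38 had a mean of at least 5 in a genotype, Cox6b2 among them through its WT arrays alone. Among the 7236 genes at that level, 3.50% were called higher and 3.44% lower. With no fold minimum, 7 of the 44 members had a p of at most 0.05, all of them among those 38, where 16.2% of genes at that level did. The lowest adjusted p of any member was 0.722. In bulk RNA of this kind, fewer cells of a type and less RNA per cell cannot be told apart.

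**Figure D1:**
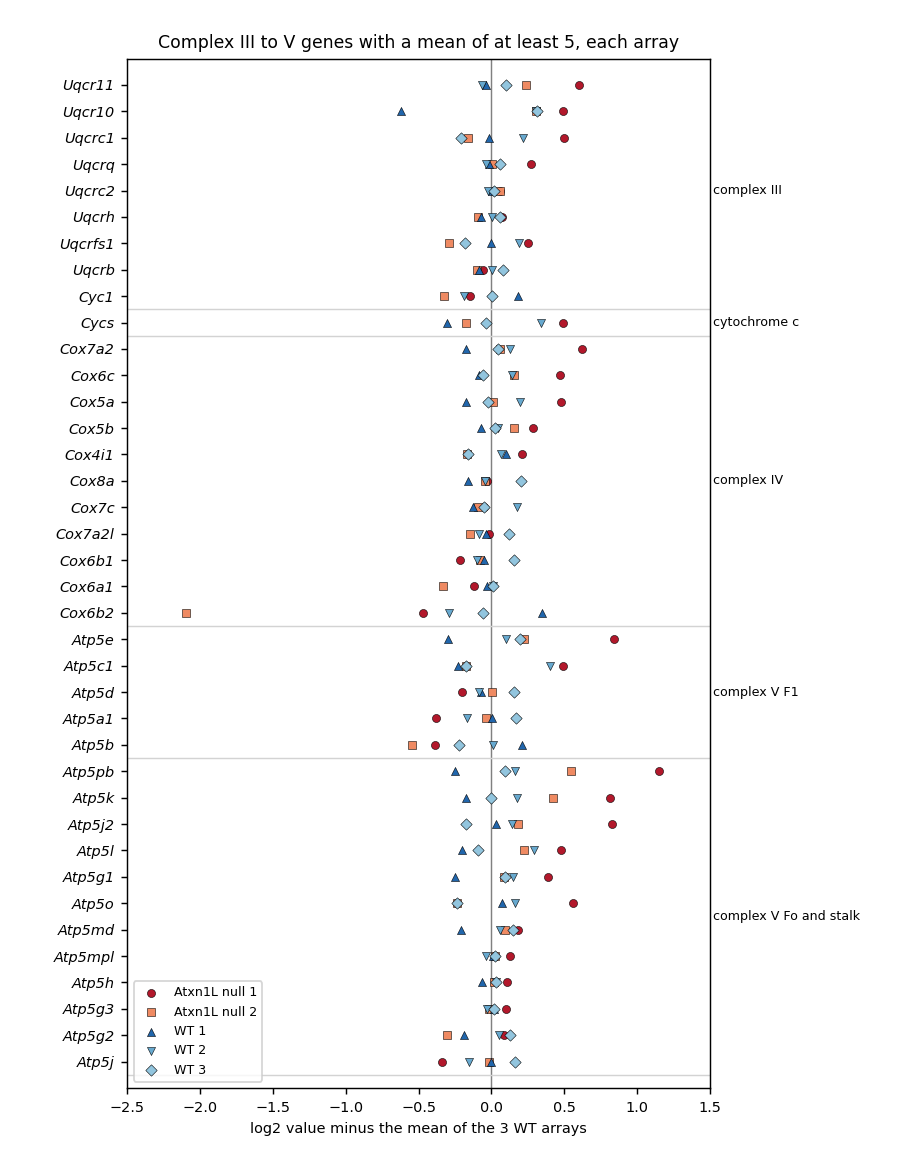
The 38 members whose mean reached 5 in a genotype, by role, with each array as a point at its log2 value minus the mean of the 3 WT arrays (x axis). The 2 Atxn1L null arrays are red and orange and the 3 WT arrays blue. The first null array lies farthest right for 25 of the 38 genes, the second for 0.

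Complex III was represented by 9 genes, all with a mean of at least 5, of which 0 passed in either direction. The differences lay between -0.24 and 0.42 with a median of 0.06. Uqcr11, a small accessory subunit, had the largest. It read 11.15 and 10.79 in the null arrays, against 10.52, 10.48 and 10.65 in the WT arrays. Both null arrays lay above all WT arrays, and the difference of 0.42 ± 0.13 had an adjusted p of 0.828 and stayed under the fold minimum.

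Uqcrc2, a core subunit that faces the matrix, gave unlike readings from its probe sets. The one with the highest mean read 12.94 in both null arrays, against 12.89, 12.86 and 12.90 in the WT arrays, a difference of 0.06 ± 0.02 with an adjusted p of 0.744. The other probe set read 9.92 and 10.15 in the null arrays and 10.75, 10.59 and 11.11 in the WT arrays. It passed the criterion as lower, by -0.78 ± 0.19 with an adjusted p of 0.650, and was the only probe set of any member that did. Neither probe set had overlapping groups, but the margin was only 0.042 for the probe set with the highest mean. The difference of that probe set fell to 0.03 when quantile normalization was applied again. The mean of the probe sets gave -0.36. The reading for this gene thus depends on the probe set. The lower call was lost without the first WT array (-0.81) and without the first null array (-0.66), where the p rose above its limit.

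None of the other complex III subunits passed. Cyc1, the cytochrome c1 subunit that reduces cytochrome c, read 9.93 and 9.75 in null arrays against 10.26, 9.89 and 10.08 in WT arrays, a difference of -0.24 ± 0.14. Uqcrfs1, the Rieske iron-sulfur protein, differed by -0.02 ± 0.22, and Uqcrc1, the other core subunit, by 0.17 ± 0.26. Among the other small subunits, Uqcrb differed by -0.08 ± 0.06, Uqcrq by 0.14 ± 0.09 and Uqcrh, the hinge protein, by -0.01 ± 0.07, although another probe set of Uqcrh gave 0.30 ± 0.26. Uqcr10 read 6.43 and 6.24 in null arrays against 5.31, 6.24 and 6.24 in WT arrays, so that the first WT array stood apart from the other 4 and the difference was 0.40 ± 0.36. All of these genes had overlapping groups.

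Cycs encodes the somatic cytochrome c, which also triggers apoptosis when it leaves the mitochondria. It read 12.62 and 11.95 in null arrays, against 11.82, 12.47 and 12.09 in WT arrays, a difference of 0.16 ± 0.31 with overlapping groups. Its other probe sets with levels above 5 gave 0.41 ± 0.30 and -0.24 ± 0.22, so that no direction could be given.

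Complex IV held 17 genes, and 0 passed in either direction. Their median difference was -0.0038, and 7 differences were positive and 10 negative. Several subunits of this complex exist as a widely expressed form and as forms of particular tissues, and the forms were read one by one. Below 5 in every array were Cox4i2 (3.03 to 3.05), best known from lung, the heart and muscle forms Cox6a2 (2.32 to 2.35), Cox7a1 (3.55 to 4.33) and Cox8b (2.87 to 2.92), and the testis forms Cox7b2 (2.49 to 2.53) and Cox8c (1.72 to 1.74). The testis form Cox6b2 was not among them, at 3.96 to 6.41. The widely expressed forms Cox4i1, Cox6a1, Cox6b1, Cox7a2 and Cox8a were above 10 in all 5 arrays.

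Cox6a1 was the widely expressed form with lower values in null HSCs. It read 14.08 and 13.87 in the null arrays, against 14.17, 14.21 and 14.21 in the WT arrays. Its other probe set read 12.72 and 12.48 in null arrays against 12.93, 12.86 and 12.99 in WT arrays. In both probe sets each null array lay below each WT array. The differences were -0.22 ± 0.07 (adjusted p = 0.840) and -0.33 ± 0.09 (adjusted p = 0.738), both smaller than the fold minimum.

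Cox5b, a structural subunit that binds zinc, had the opposite pattern. It read 14.04 and 13.91 in the null arrays, against 13.68, 13.80 and 13.78 in the WT arrays, a difference of 0.22 ± 0.06 with an adjusted p of 0.722. Of its 6 probe sets, the 4 with the highest means gave 0.22 to 0.38 with no overlap between genotypes, but 3 of them carry the suffix for probes that may bind related sequences. A much dimmer one, at 5.32 and 4.34 in null arrays against 6.07, 5.57 and 5.17 in WT arrays, gave -0.77 ± 0.44.

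Cox6b2, which encodes a subunit that faces the intermembrane space, had the largest difference of any member. It read 5.59 and 3.96 in the null arrays, against 6.41, 5.77 and 6.00 in the WT arrays. All null values were below all WT values, but the null arrays lay 1.63 apart and the difference of -1.28 ± 0.58 did not pass (adjusted p = 1). Without the first null array it passed as lower (-2.10), and without the second it shrank to -0.47. It also passed, at the same difference, when dim probe sets were left out of the fit. Its widely expressed partner Cox6b1 read 13.67 and 13.81 in null arrays against 13.83, 13.78 and 14.04 in WT arrays and differed by -0.15 ± 0.10.

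Of the remaining complex IV genes, Cox6c, a small membrane subunit, read 12.22 and 11.90 in null arrays against 11.67, 11.89 and 11.69 in WT arrays. The genotypes did not overlap, by a margin of 0.008 between the second null and the second WT array, and the difference was 0.31 ± 0.14. Cox7a1 also did not overlap, at 3.80 and 4.33 in null arrays against 3.71, 3.55 and 3.77 in WT arrays, and its difference of 0.39 ± 0.19 lay wholly in the dim range. Without the first null array it passed as higher (0.65). Cox7a2 read 13.12 and 12.56 in null arrays against 12.32, 12.63 and 12.55 in WT arrays (0.34 ± 0.21), with only the first null array clear of the WT range, and without the second null array it passed as higher (0.62). Cox5a, a regulatory subunit that binds thyroid hormone metabolites, had the same shape, at 13.47 and 13.00 in null arrays against 12.82, 13.19 and 12.97 in WT arrays (0.25 ± 0.20). Another probe set of Cox5a did not overlap, at 11.32 and 10.99 in null arrays against 10.72, 10.95 and 10.98 in WT arrays (0.27 ± 0.14).

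Cox4i1, the regulatory subunit that binds ATP, lies 10.9 Mb from Atxn1l on chromosome 8 and read 13.20 and 12.82 in null arrays against 13.09, 13.05 and 12.82 in WT arrays, a difference of 0.02 ± 0.16. Cox7a2l, which joins complexes III and IV into supercomplexes and is known in a shortened form in C57Bl/6 mice, differed by -0.08 ± 0.09. Cox7c (-0.07 ± 0.11) and Cox8a (-0.04 ± 0.12) also had overlapping groups. Cox7b, the widely expressed partner of Cox7b2, is not among the members.

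In the F1 head of ATP synthase 5 genes were measured, 0 passed and the median difference was -0.10. The head is built of catalytic beta and supporting alpha subunits around a central rotor of gamma, delta and epsilon. Atp5b, the catalytic beta subunit, read 9.02 and 8.86 in the null arrays, against 9.61, 9.41 and 9.18 in the WT arrays. Both null values lay below all WT values and the difference was -0.46 ± 0.15 (adjusted p = 0.838), less than the fold minimum. Atp5e, the epsilon subunit, moved the other way, at 10.39 and 9.77 in null arrays against 9.25, 9.65 and 9.74 in WT arrays. Here the second null array exceeded the highest WT array by 0.031 only, and the difference of 0.54 ± 0.27 did not pass (adjusted p = 1).

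Atp5a1, the alpha subunit, read 13.35 and 13.69 in null arrays against 13.73, 13.56 and 13.90 in WT arrays (-0.21 ± 0.16). Its other probe sets gave -0.35 ± 0.18, without overlap, and 0.08 ± 0.28, with overlap. Atp5d, the delta subunit, differed by -0.10 ± 0.11. Atp5c1, the gamma subunit, differed by 0.16 ± 0.32 and read 10.75 in the first null array and 10.08 in the second, a gap wider than the difference between the genotypes.

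The membrane ring and stalks of ATP synthase held 12 genes, 10 with a positive difference and 2 with a negative one, and a median of 0.15. Both members that passed belong here, and both are subunits outside the proton-carrying ring. Atp5pb, subunit b of the side stalk that holds the head still, read 11.29 and 10.69 in the null arrays, against 9.89, 10.30 and 10.23 in the WT arrays. Each null array lay above each WT array, and the null arrays were themselves 0.60 apart. The difference was 0.85 ± 0.25, or 1.80-fold, and passed the criterion but not the adjustment (adjusted p = 0.768). Its other probe set read 7.97 and 7.49 in null arrays against 6.90, 7.27 and 7.27 in WT arrays, again without overlap, and narrowly missed the criterion in p and in fold (0.5848 ± 0.21 on the log2 scale against a minimum of 0.585, adjusted p = 0.926).

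Atp5k, subunit e, a small membrane protein known in yeast to be needed for dimers of ATP synthase, read 11.32 and 10.94 in the null arrays, against 10.34, 10.69 and 10.51 in the WT arrays. The genotypes did not overlap, and the difference of 0.62 ± 0.17, or 1.54-fold, passed (adjusted p = 0.735). A second probe set read 11.24 and 10.66 in null arrays against 9.93, 10.28 and 10.03 in WT arrays and also passed (0.87 ± 0.23, adjusted p = 0.695). Both are of the kind whose probes may bind related sequences. The remaining probe set, which is not, read 9.59 and 9.24 in null arrays against 8.69, 9.03 and 9.03 in WT arrays and did not pass (0.50 ± 0.18, adjusted p = 0.898). All 3 probe sets of the gene thus lay higher in both null arrays than in any WT array.

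Each of these calls was lost when some single arrays were left out. Atp5pb passed only without the second null array (1.15), and was not called without the first null array (0.55) or without the first, the second or the third WT array (0.72, 0.93 and 0.89). The p exceeded its limit in each of these fits, and without the first null array the fold also fell under its minimum. Atp5k passed without the second null array (0.81) and without the second WT array (0.71). It was not called without the first null array (0.43) or without the first or the third WT array (0.53 and 0.62). With probe sets that may bind related sequences left out, neither gene passed.

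Atp5j2, subunit f of the membrane part, was the only other gene of this group with no overlap in its probe set with the highest mean. It read 12.06 and 11.41 in the null arrays, against 11.26, 11.37 and 11.05 in the WT arrays, a difference of 0.51 ± 0.24 (adjusted p = 1). Its second probe set, at 9.57 and 8.99 in null arrays against 8.44, 8.83 and 8.60 in WT arrays, passed at the edge of the criterion (0.66 ± 0.23, adjusted p = 0.893). That call was kept only without the second null array (0.95) and lost without any of the other arrays (0.37 to 0.76).

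**Figure D2:**
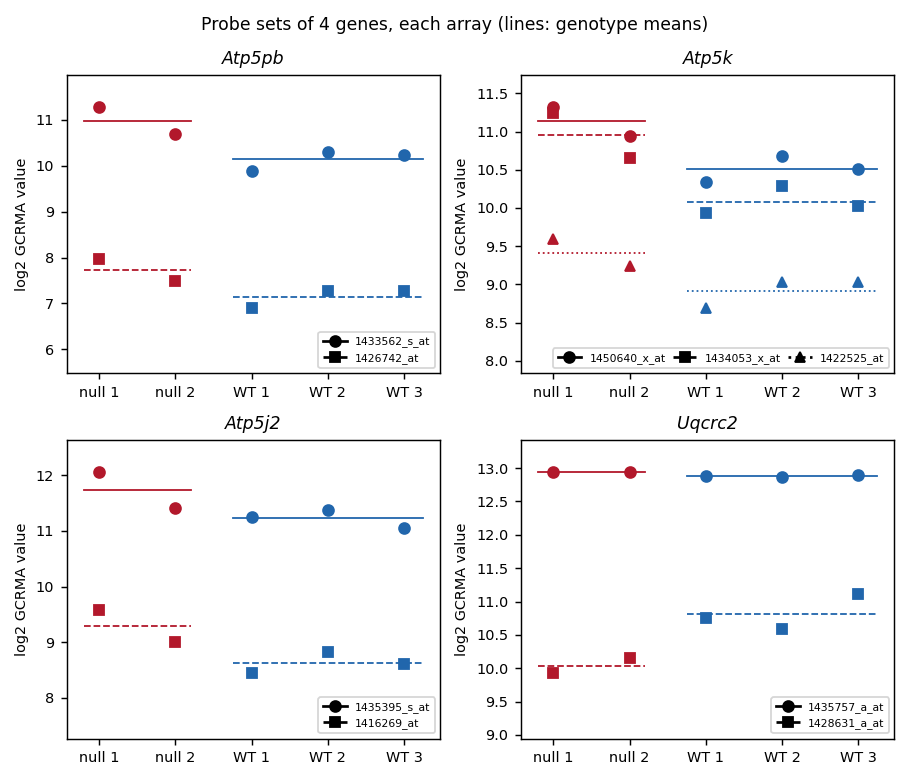
Log2 values (y axis) of each array (x axis, Atxn1L null in red, WT in blue) for the probe sets whose mean reached 5, of the 4 genes that had a probe set past the criterion, with lines at the genotype means. Atp5pb, Atp5k and Atp5j2 lie higher in both null arrays in every probe set shown, while the probe sets of Uqcrc2 differ by 0.06 and -0.78.

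The ring of subunit c, which carries the protons, is encoded by 3 genes for 1 identical mature protein. Atp5g3 read 13.87 and 13.75 in null arrays against 13.78, 13.74 and 13.78 in WT arrays, a difference of 0.04 ± 0.04. Atp5g1 differed by 0.24 ± 0.18 and Atp5g2 by -0.11 ± 0.17, and the genotypes overlapped in all 3. In the side stalk, Atp5o, the subunit that ties the stalk to the head, read 9.11 and 8.32 in null arrays against 8.63, 8.71 and 8.32 in WT arrays (0.16 ± 0.30). Atp5h, subunit d, differed by 0.06 ± 0.05. Another probe set of Atp5h gave -0.21 ± 0.12, with both null arrays below all WT arrays. Atp5j, the coupling factor, differed by -0.18 ± 0.15. None of these stalk partners of Atp5pb passed. The small membrane subunits Atp5l (subunit g, 0.35 ± 0.19), Atp5md (0.14 ± 0.13) and Atp5mpl (0.08 ± 0.04) had positive differences with overlapping groups.

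Over all 87 probe sets of the members, 4 passed as higher and 1 as lower, against 1.30% and 1.22% of the 34945 probe sets of a single gene. The 4 belonged to Atp5pb, Atp5k and Atp5j2 alone. Of the 87, 67 had a mean of at least 5 in a genotype, while most probe sets on the array are dim, so the shares are not matched for level. Counted by gene, 3.50% were called higher at that level, against 1.57% of all genes. Of the members, 27 had more than 1 probe set, and 21 had at least 2 with a mean of 5 or more.

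Complete separation of the genotypes was no more frequent among members of higher level than among all such genes. It was seen for 12 of the 44 members (27.3%), with null higher in 9 and lower in 3, against 17.5% of all genes, most of which are dim. At a mean of at least 5 it was seen for 11 of 38 members (28.9%), against 33.8% of genes at that level.

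The larger contrast lay between the null arrays. Of the 38 members with a mean of at least 5, the first null array read above the second in 34 (89.5%), against 3640 of 7236 genes at that level (50.3%). The first null array was the highest of all 5 for 25 members (65.8%, against 29.1% of genes), the second for 0 (against 18.6%). The third WT array was highest for 9, the first for 3 and the second for 1, and the first WT array was lowest for 16. By role, the first null array exceeded the second in 9 of 9 complex III genes, 10 of 11 complex IV genes, 3 of 5 F1 genes and 11 of 12 genes of the membrane ring and stalks, and for Cycs. The exceptions were Cox6b1, Atp5a1, Atp5d and Atp5j.

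The same order was seen in the genes listed as complex I subunits, where the first null array was highest for 22 of 33 genes (66.7%). Over the members the median difference from the WT means was 0.20 in the first null array and -0.02 in the second, against 0.02 and 0.01 for all genes at that level. For the 25 members with an overall mean of at least 10, the average was 12.64 and 12.43 in the null arrays, against 12.32, 12.45 and 12.45 in the WT arrays, so the second null array lay within the WT range. Between the null arrays, the Gapdh 3′ to 5′ values above lay 0.125 apart. The actin control probe set at the 3′ end read 13.17 in the first null array and 12.39 in the second. The actin probe set at the middle read 7.96 and 6.83. The labels name no difference between the null pools, and the source of the gap was not tested.

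**Figure D3:**
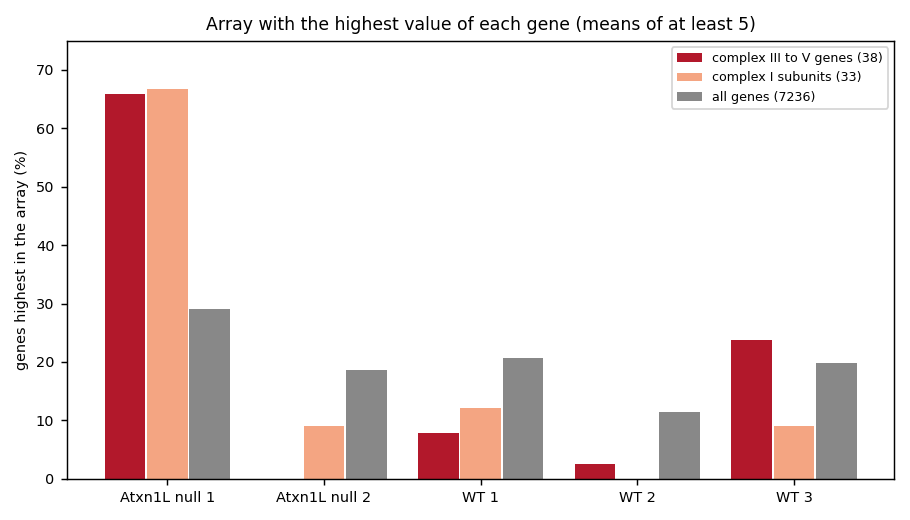
Share of genes (y axis, percent) whose highest value of the 5 fell in each array (x axis). The groups are the 38 complex III to V genes, 33 genes listed as complex I subunits and all 7236 genes whose mean reached 5 in a genotype. The first null array holds the highest value of 65.8% of the complex III to V genes and the second null array of 0.

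The difference between genotypes depended on which null array was kept. With the first null array left out, the median difference of the 44 members was -0.0026 and 20 were positive. In that fit 1 member passed as higher (Cox7a1) and 1 as lower (Cox6b2), beside 535 and 675 of all 45037 probe sets. With the second left out the median was 0.11 and 28 were positive. Here 5 members passed as higher, namely Atp5j2, Atp5k, Atp5pb, Cox7a2 and Uqcr11, and 0 as lower, beside 1128 and 820 of all probe sets. With all 5 arrays 510 and 564 probe sets passed, so that calls as higher were more frequent over the whole array too in this fit.

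Other genes of oxidative phosphorylation were read from lists for comparison. Of 37 genes listed as complex I subunits 34 were measured, 2 passed as higher and 0 as lower, and the median was 0.16. Of the 34, 33 had a mean of at least 5 in a genotype, a level at which 3.50% of genes were called higher and 3.44% lower. The list includes Ndufa4, named as a complex I gene but now assigned to complex IV. Ndufa4 read 9.46 and 8.99 in null arrays against 7.99, 8.66 and 7.34 in WT arrays, without overlap. It had the largest difference of this list and did not pass (1.23 ± 0.46, adjusted p = 0.951). Ndufb9 read 12.39 and 12.46 in null arrays against 11.58, 11.73 and 11.92 in WT arrays (0.68 ± 0.12, adjusted p = 0.476), and stayed called with each single array left out, but not when the gene's probe sets were averaged (0.40). Ndufb7 read 12.40 and 11.83 in null arrays against 11.33, 11.55 and 11.54 in WT arrays (0.64 ± 0.21, adjusted p = 0.829), and was called only without the second null array. Both are accessory subunits of the membrane arm. None of the 4 complex II subunits passed, and they went in both directions. Sdha, the flavoprotein, differed by 0.25 ± 0.15, but by -0.30 without probe sets that may bind related sequences and by -0.013 when its probe sets were averaged, and Sdhb, the iron-sulfur subunit, differed by 0.27 ± 0.25. The membrane anchors were lower in both null arrays than in any WT array. Sdhc read 7.34 and 6.18 in null arrays against 8.35, 7.64 and 7.70 in WT arrays (-1.14 ± 0.47, adjusted p = 1), and was called lower without the first null array (-1.71), against -0.56 without the second. It was also called lower with the variance trend, without dim probe sets, with averaged probe sets and with the replicate block. Sdhd differed by -0.26 ± 0.12.

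Assembly factors gave 0 calls, with 6 of 8 listed genes measured for complex III, 20 of 26 for complex IV and 6 of 6 for complex V, and medians of -0.06, 0.01 and 0.14. Cox17, the copper chaperone of complex IV, differed by 0.18 ± 0.17 and Coa5 by -0.07 ± 0.15. Ttc19, which maintains complex III, read 8.88 and 8.95 in null arrays against 9.56, 9.41 and 9.18 in WT arrays, without overlap, but did not reach the fold minimum (-0.47 ± 0.13, adjusted p = 0.722), and the sign turned when its probe sets were averaged (0.079). Uqcc3 differed by -0.25 ± 0.19. Atpif1, the natural inhibitor of ATP synthase, read 12.20 and 12.13 in null arrays against 11.96, 11.80 and 11.90 in WT arrays. Both null arrays lay above the WT range, and the difference of 0.28 ± 0.06 (adjusted p = 0.597) was under the fold minimum. Atpaf1, an assembly factor of the F1 head, was the member of this list farthest from 0, at 5.82 and 6.30 in null arrays against 6.57, 6.66 and 6.68 in WT arrays. Its groups did not overlap, and its difference of -0.58 ± 0.17 (adjusted p = 0.762) fell just short of the fold minimum. It was called lower with array weights (-0.60) and without the second null array (-0.82), against -0.33 without the first and -0.22 with averaged probe sets. Tmem242 differed by -0.12 ± 0.17.

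None of the 7 genes listed as carriers of ATP and phosphate or as pores passed (median -0.13), and 2 had a positive and 5 a negative difference. The phosphate carrier Slc25a3 differed by -0.10 ± 0.08 and the ADP/ATP carrier Slc25a5 by -0.16 ± 0.15. Slc25a4, another ADP/ATP carrier, was the only 1 of the list without overlap. It read 12.42 and 12.34 in null arrays against 13.03, 12.63 and 12.69 in WT arrays (-0.40 ± 0.15, adjusted p = 0.926). The 5 genes of heme and cytochrome c handling also gave 0 calls (median -0.19), with the import proteins Chchd4 at -0.19 ± 0.15 and Gfer at -0.47 ± 0.43.

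Of 15 listed regulators of mitochondrial biogenesis 14 were measured, with a median of 0.13, 0 passed as higher and 1 as lower. Of the 14, 10 had a mean of at least 5 in a genotype, a level at which 3.44% of genes were called lower. Esrra, a nuclear receptor that drives many respiratory chain genes, read 6.98 and 7.33 in the null arrays, against 8.20, 7.71 and 8.00 in the WT arrays. Both null arrays were below all WT arrays, and the difference was -0.82 ± 0.20 (adjusted p = 0.648). It was not called without the first null array (-0.64) or the third WT array (-0.80), nor when the gene's probe sets were averaged (-0.45). Yy1 read 11.92 and 11.76 in null arrays against 11.42, 11.58 and 11.03 in WT arrays and did not pass (0.50 ± 0.19, adjusted p = 0.983), although without the second WT array it did (0.61). Nrf1 differed by 0.13 ± 0.12 and Gabpa, a subunit of GABP, by 0.14 ± 0.21.

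**Figure D4:**
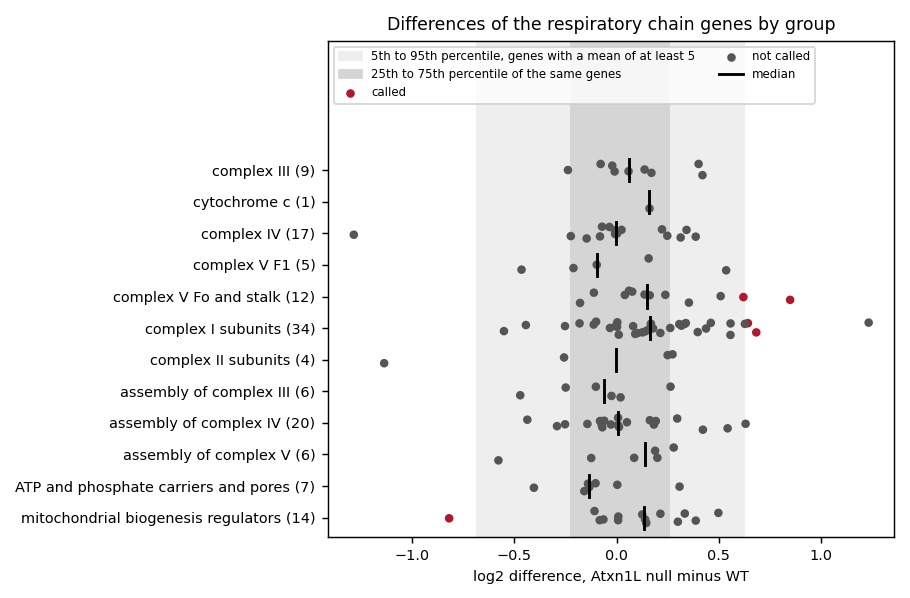
Log2 differences of Atxn1L null minus WT (x axis) for each gene, grouped by complex or list (y axis, number of genes in brackets), with medians as bars and genes past the criterion in red. Dark and light grey bands span the 25th to 75th (-0.22 to 0.26) and 5th to 95th percentiles (-0.68 to 0.62) of all genes whose mean reached 5 in a genotype. Most members fall within the light band, with Cox6b2 far to its left and Atp5pb to its right.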

How the data were processed

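RNA of sorted HSCs was measured on 5 Affymetrix arrays, 2 of Atxn1L null and 3 of WT pools. The authors amplified the RNA by repeated in vitro transcription and processed the probe intensities with GCRMA, so that the deposited values are log2 levels after background correction, quantile normalization and summarization by the authors. Amplification from the poly(A) tail favours 3′ ends, and quantile normalization forces the arrays to 1 distribution. The log base is not stated, and base 2 was taken from their range.

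From there, a mean per genotype was fitted for 45037 probe sets with limma 3.58.1 (lmFit and eBayes at their defaults, R 4.3.3), after 64 control probe sets were left out. The fit had 3 residual and 0.771 prior degrees of freedom, and Benjamini-Hochberg adjustment ran over all probe sets tested. The thresholds of 0.05 for p and 1.5 for the fold are those of the study, which also names a false-discovery correction. Here the p of the criterion was left unadjusted. An exact test of 2 against 3 arrays cannot go below p = 0.1. Probe sets were named from the platform annotation, and 932 probe sets of several genes and 9160 of none named no gene. P-values measure the spread between pools, whose mice are not described one by one. Arrays give no depth, and their number limits the precision.

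The members and all gene lists were chosen with earlier results of these data known, and the lists were written from general knowledge. Named genes were those that passed, members with another probe set that passed, the highest and the most different of each role, tissue forms, and up to 4 called or the 2 highest genes of each other list. Other members, Gabpa, Sdhc, Sdhd, Atpaf1, Ndufa4, Slc25a4, Hoxa9, Meis1, Fgd5, Tek and Cd27 were named beyond this rule, after their values were seen. In simulated data for the same numbers of arrays, 44.5% of 200 probe sets changed by 0.58 on the log2 scale passed. Of those changed by 1 and by 2, 96% and 100% passed, beside 248 of 44437 unchanged ones. The change of 0.58 is the fold minimum itself. The probe sets were drawn from all those tested, most of which are dim, with independent noise for each value. These shares therefore do not describe the members or a shift shared by many genes of a single array. Alternatives left out each array, added a replicate block, weighted the arrays, let the variance follow the level with robust estimation, normalized again by quantiles or by the median, removed dim or possibly cross-hybridizing probe sets, averaged the probe sets of a gene, or used other thresholds.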

Additional observations from a re-analysis of the deposited data

How the results depend on the processing

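The count of 2 members called higher and 0 called lower was also found with a variance trend and robust estimation, renewed quantile normalization, median centring and the mean of the probe sets of a gene, with Atp5k and Atp5pb as the genes called each time. With array weights, fitted gene by gene because the default estimate did not converge, 1 was called higher (Atp5pb). Without probe sets of the suffixes for possible cross-hybridization 1 was called higher (Atp5j2), and without dim probe sets 1 was called lower (Cox6b2). With no fold minimum 5 were higher and 2 lower, and at an adjusted p under 0.05 there were 0 in both directions. With the replicate block, 0 members were called higher and the median difference was 0.0564. No null array shares the number of the third WT array, so that array did not enter the genotype difference in this fit. For Atp5pb the difference was 0.89 both with the block and without the third WT array. The block also leaves fewer degrees of freedom, so lost calls there cannot be read as an effect of pairing. No source states whether the replicate numbers pair the pools. Deviations of same-numbered arrays correlated at -0.033 and -0.257 across probe sets. With 2 null arrays the deviations of one mirror those of the other. The values for unlike numbers, 0.257 and 0.033, were therefore fixed by the first ones, and none of them can settle the pairing.

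Leaving out 1 array at a time gave 0 to 5 members called higher and 0 to 1 lower, where 1.09% to 3.11% and 0.90% to 2.31% of all genes were. The median difference was -0.0026 to 0.114. Without overlap were 15 to 34 members (34.1% to 77.3%), against 24.5% to 42.5% of all genes, shares that grow as arrays are removed. Over the other genes of the pathway it gave 1 to 10 higher and 0 to 3 lower, and over the probe sets of the members, chosen after seeing the data, 0 to 12 higher and 0 to 1 lower. The highest counts of calls as higher came without the second null array, where such calls were more frequent over the whole array too. Of the 87 probe sets of the members, 67 had a mean of at least 5, as had most of the other listed genes. No share for features of that level was taken in these fits, so the counts cannot be read as a change of the pathway. The smaller fits also have fewer degrees of freedom. With 2 null pools, a change common to the genotype and one of the first null pool cannot be told apart. Levels of probe sets below 5 lie near the background of the array, where a difference cannot be read as a change of transcript level.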
